A study of Homo sapiens with 6 samples.

Results

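Intraflagellar transport (IFT) genes code for the trains and motors that build and maintain cilia. The 33 genes described here were chosen by name: 7 of the IFT-A complex and its adaptor, 17 of the IFT-B complex, 5 of the kinesin-2 family and 4 of dynein-2. All 33 were found among the 63140 genes of the count table, HSPB11 through its newer symbol IFT25, and all 33 passed the filter on low counts. The set was proposed with the miR-34a against control results of these libraries in view, so its counts, folds and adjusted p-values are descriptions and not independent evidence.

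In 3 libraries the cells had received a miR-34a duplex and in 3 the AllStars negative control; all 6 were HEK293T, a line derived from human embryonic kidney, sampled 18 h after transfection. The 3 of each kind are described as biological replicates, and the control is named as an siRNA in some descriptions and as a miRNA in others. Library totals ranged from 24728662 to 36650331 counts. The HEK293T markers KRT18, VIM and NEFM were present at 39.7, 194 and 152 CPM (TMM-scaled counts relative to library size) in miR-34a libraries and at 43.1, 215 and 178 CPM in control libraries, while PAX2 was low, at 1.55 CPM with miR-34a and 1.74 CPM in the control. Of the 6 such markers INA and NEFM were called lower with miR-34a, but NEFM lost its call under 5 of 12 alternatives (without miR-34a replicate 1 or 3, without control replicate 2 or 3, and with the replicate block); the part of this in the results was not tested. Markers of blood summed to at most 2.5 CPM in any library, and those of endothelium to at most 0.186 CPM. Of the fibroblast markers COL1A2 and DCN had no count in any library, but COL1A1 stood at 22 CPM in miR-34a libraries and 23.4 CPM in control libraries.

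Most proteins of a cilium are made in the cell body and carried along the microtubules of the axoneme by IFT trains. IFT-B trains are pulled to the tip by heterotrimeric kinesin-2, and IFT-A with dynein-2 brings them back; IFT-A with TULP3 also carries membrane receptors in. Many genes for these proteins are known to hold an X-box, a near-palindromic element bound by RFX transcription factors. A microRNA such as miR-34a lowers mRNAs that match its seed, mostly in the 3′ untranslated region (UTR). RNA levels only were measured here, and in bulk RNA a change in the share of cells that express a gene cannot be told apart from a change in RNA per cell.

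The first sequences shown are the transfected guide strand and 5 seed matches of 7 bases in the 3′ UTRs of members. The matches were read from 1 transcript per gene and mark members that could pair with the guide. They are not all such members: other transcripts of IFT88 and CLUAP1 hold a match, and WDR35 and IFT57 hold a shorter one. The mature miR-34a-5p is from RefSeq (GRCh38.p14, chr1:9151735-9151756, minus strand), with its seed, bases 2 to 8, in capitals; in the UTR sites, read from GENCODE 29 transcripts on GRCh38, capitals mark the match.
miR-34a-5p: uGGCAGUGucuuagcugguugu
KIF17 7mer-A1, chr1:20664536-20664542, minus strand: ctgccttataggcatgtagagACTGCCAgg
KIF17 7mer-m8, chr1:20664138-20664144, minus strand: tgactggccccacttcctaagCACTGCCct
KIF17 7mer-m8, chr1:20664087-20664093, minus strand: gtcccacagcaggtcttcctgCACTGCCca
TULP3 7mer-m8, chr12:2940907-2940913, plus strand: accccccaccccatcctgaggCACTGCCtg
IFT22 7mer-A1, chr7:101315111-101315117, minus strand: ccagccttcacctgggACTGCCAca

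The second set shows 120 bases around the annotated start, 90 before and 30 after, of 5 members that were higher with miR-34a and of KIF17, the member that was lower, all from RefSeq on GRCh38.p14. Capitals mark a match to the X-box consensus or to the 7-base motif GTTGCCA or GTTACCA, on either strand. That motif is one arm of a canonical X-box. All 5 hold a match, but they do not stand for every member that was higher. IFT140, KIF3A, KIFAP3 and TRAF3IP1 were also higher, and their promoter windows hold no match.
IFT88, chr13:20567067-20567186, plus strand: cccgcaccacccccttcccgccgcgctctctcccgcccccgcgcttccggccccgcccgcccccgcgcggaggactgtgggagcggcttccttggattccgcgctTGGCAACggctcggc
TTC26, chr7:139133688-139133807, plus strand: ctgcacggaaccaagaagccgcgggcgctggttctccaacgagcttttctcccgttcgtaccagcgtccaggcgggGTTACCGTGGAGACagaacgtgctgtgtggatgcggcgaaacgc
DYNC2LI1, chr2:43773949-43774068, plus strand: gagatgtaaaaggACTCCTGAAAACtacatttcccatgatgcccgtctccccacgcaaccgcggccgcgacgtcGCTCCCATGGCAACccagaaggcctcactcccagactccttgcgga
WDR19, chr4:39182439-39182558, plus strand: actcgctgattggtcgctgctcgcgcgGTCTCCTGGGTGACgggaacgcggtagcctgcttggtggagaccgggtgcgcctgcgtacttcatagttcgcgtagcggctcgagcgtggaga
IFT122, chr3:129440134-129440253, plus strand: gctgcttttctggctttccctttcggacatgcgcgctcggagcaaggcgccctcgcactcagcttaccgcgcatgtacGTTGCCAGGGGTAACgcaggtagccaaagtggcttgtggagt
KIF17, chr1:20717978-20718097, minus strand: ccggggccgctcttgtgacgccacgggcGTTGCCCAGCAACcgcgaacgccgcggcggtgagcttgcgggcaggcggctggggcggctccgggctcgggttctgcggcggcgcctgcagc

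Of the 33 members, 24 were higher with miR-34a, 1 was lower and 8 were not called (edgeR quasi-likelihood test across all genes, Benjamini-Hochberg adjusted p under 0.05). Over all 17427 genes tested, 5.38% were higher and 6.7% lower by that rule; the contrast is the one from which the set was proposed, so nothing is read from the difference. The same 24 members had all 3 miR-34a libraries above all 3 control libraries, as had 13.1% of all genes, and KIF17 had them all below, as had 14.2% of all genes. The median log2 fold change was 0.42 over the members and 0.00 over all genes tested. Summed over the members, the level was 1980, 2040 and 2070 CPM in the miR-34a libraries and 1540, 1530 and 1530 CPM in the control libraries.

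**Figure D1:**
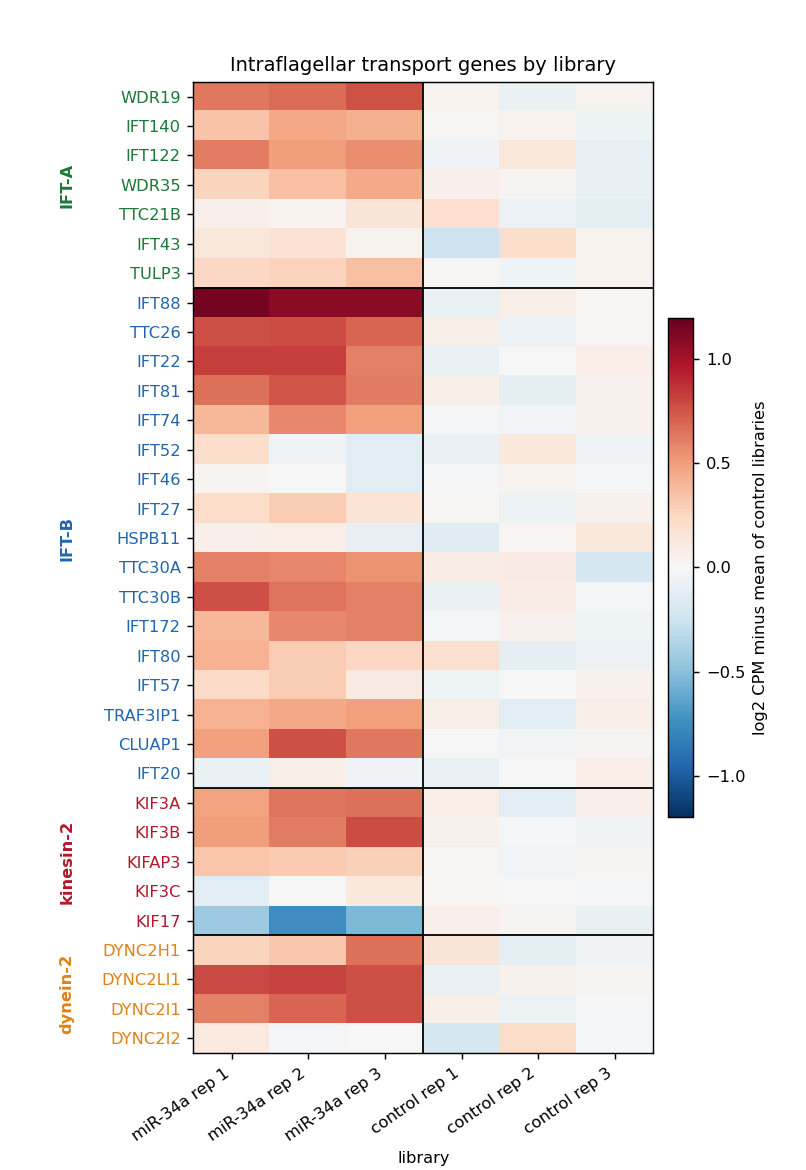
Level of each member (rows, grouped and coloured by complex) in each library (columns, miR-34a left of control), as log2 CPM minus the mean of the control libraries. IFT88 is darkest in all 3 miR-34a libraries and KIF17 is the only row that is blue in all 3.

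In IFT-A, the complex linked to the return trip and to entry of receptors, 5 of 7 genes were higher, none was lower and 2 were not called, with a median log2 fold change of 0.36. All 3 core subunits were among the 5. WDR19 (IFT144) had 66.5, 68.2 and 73.0 CPM in miR-34a libraries, against 44.1, 40.8 and 44.2 CPM in control libraries, a log2 fold change of 0.69 ± 0.07 (SE; edgeR adjusted p = 2.3e-07). IFT122 had 50.2, 46.5 and 48.6 CPM with miR-34a, against 32.0, 36.3 and 30.7 CPM in the control (0.55 ± 0.08). IFT140 had 48.9, 53.0 and 52.0 CPM with miR-34a, against 39.0, 39.8 and 37.2 CPM in the control (0.41 ± 0.07). All miR-34a libraries were above all control libraries for each of these core genes, as in 13.1% of all genes.

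The peripheral subunits of IFT-A differed among themselves. WDR35 (IFT121) had 78.7, 83.7 and 89.0 CPM in miR-34a libraries and 68.0, 66.7 and 61.3 CPM in control libraries, a log2 fold change of 0.36 ± 0.07 (SE). TTC21B (IFT139) had 40.7, 40.0 and 43.1 CPM with miR-34a, against 44.7, 37.0 and 35.8 CPM in the control, and the groups overlapped (0.08 ± 0.08, edgeR adjusted p = 0.63). IFT43, a small subunit, averaged 20.2 ± 0.987 CPM with miR-34a and 18.8 ± 2.99 CPM in the control (SD, n = 3 each), also with overlap. TULP3, the tubby-like adaptor that couples IFT-A to membrane cargo, was higher, at 46.8 ± 1.82 CPM with miR-34a and 38.1 ± 1.31 CPM in the control; its 3′ UTR holds a 7mer-m8 match.

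In IFT-B, the complex that carries tubulin and other cargo to the tip, 13 of 17 genes were higher, none was lower and 4 were not called, with a median log2 fold change of 0.49. Of the 11 genes of the core subcomplex IFT-B1, 8 were higher. IFT88, a scaffold of tetratricopeptide repeats on chromosome 13 (20567069 to 20691437, plus strand, GRCh38), had the largest fold among the members: 26.5, 25.3 and 25.2 CPM in miR-34a libraries, against 11.3, 12.5 and 12 CPM in control libraries, a 2.15-fold difference (log2 1.10 ± 0.09 SE, edgeR adjusted p = 4.9e-09). Its lowest miR-34a library was well above its highest control library. TTC26 (IFT56), another such repeat protein, had 93.3, 94.0 and 88.5 CPM with miR-34a, against 57.2, 51.9 and 54.8 CPM in the control (1.68-fold). IFT22, a small GTPase-like subunit, had 39.7, 39.5 and 33.7 CPM with miR-34a, against 21.1, 22.3 and 23.5 CPM in the control (1.68-fold), with a 7mer-A1 match 17 nt after its stop codon.

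The coiled-coil partners IFT81 and IFT74, which together bind tubulin, were both higher. IFT81 had 82.8, 88.3 and 80.9 CPM in miR-34a libraries and 55.0, 48.4 and 54.1 CPM in control libraries, a log2 fold change of 0.68 ± 0.07 (SE). IFT74 had 43.9, 49.7 and 46.8 CPM with miR-34a and 32.8, 32.6 and 34.3 CPM in the control (0.49 ± 0.08). The groups were apart for both genes, with miR-34a above, as in 13.1% of all genes. TTC30A and TTC30B (IFT70A and IFT70B), paralogues on chromosome 2 whose coding sequences are 96% identical over 1998 bases, can share reads, so their values are uncertain. TTC30A had 16.4, 16.3 and 15.8 CPM with miR-34a and 11.6, 11.6 and 9.45 CPM in the control. TTC30B had 13, 12 and 11.6 CPM with miR-34a and 7.20, 8.11 and 7.49 CPM in the control, and 5.48% of its exonic length is shared with AGPS on the opposite strand, a gene at 151 CPM in the control. Both paralogues were called higher, with log2 fold changes of 0.57 ± 0.11 and 0.68 ± 0.12 (SE).

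The other IFT-B1 genes had log2 fold changes from -0.03 (IFT46) to 0.22 (IFT27). IFT27, a Rab-like GTPase, averaged 49.1 ± 2.39 CPM in miR-34a libraries and 42 ± 1.5 CPM in control libraries (SD, n = 3 each), just inside the threshold (edgeR adjusted p = 0.049). Its binding partner HSPB11 (IFT25) averaged 40.8 ± 2.71 CPM with miR-34a and 40.5 ± 3.99 CPM in the control and was not called. IFT52 and IFT46, core subunits of the same subcomplex, were not called either. IFT52 had 51.1, 43.0 and 40.3 CPM with miR-34a, against 41.7, 48.2 and 42.8 CPM in the control, and IFT46 had log2 fold change -0.03 ± 0.08 (SE). All 3 of these uncalled genes overlapped between the groups.

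Of the 6 IFT-B2 genes, 5 were higher. IFT172, the large subunit linked to turnaround at the tip in Chlamydomonas, had 90.7, 103 and 104 CPM in miR-34a libraries and 68.4, 71.2 and 66.5 CPM in control libraries, a log2 fold change of 0.53 ± 0.07 (SE). CLUAP1 (IFT38) had 25.5, 30.9 and 28 CPM with miR-34a and 18.0, 17.7 and 18.5 CPM in the control (0.64 ± 0.09). TRAF3IP1 (IFT54), which like CLUAP1 has a calponin-homology domain, had 74.6, 76.9 and 78.5 CPM with miR-34a and 58.6, 51.0 and 58.6 CPM in the control (0.45 ± 0.07). These 3 genes showed no overlap between the groups, with miR-34a above, as in 13.1% of all genes.

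The changes of IFT57 and IFT80 were smaller. IFT57 averaged 109 ± 7 CPM in miR-34a libraries and 93.9 ± 3.03 CPM in control libraries (SD, n = 3 each). IFT80 averaged 30.9 ± 1.88 CPM with miR-34a and 24.8 ± 2.87 CPM in the control. IFT80 shares 27.2% of its exonic length with a read-through gene that has no counts and 8.46% with SMC4 on the opposite strand, which stood at 397 CPM in the control and was itself higher (log2 fold change 0.31). IFT20, the subunit that also works at the Golgi, was not called, at 20.9, 23.1 and 21.4 CPM with miR-34a and 20.9, 21.9 and 23.3 CPM in the control; 11.2% of its exonic length is shared with TMEM97 on the opposite strand, at 98.1 CPM in the control and lower with miR-34a. Without strand in the libraries, reads from such overlapping stretches cannot be told apart. The calls of IFT27, IFT57 and IFT80 were lost without single libraries: IFT27 without any 1 of the 6, with no filter on low counts and with the replicate number as a block (edgeR adjusted p = 0.1 with the block; highest edgeR adjusted p over its alternatives 0.24), IFT57 without any 1 except miR-34a replicate 3, and with the block (0.098; highest 0.24) and IFT80 without miR-34a replicate 1 or 2 or control replicate 2 or 3 (highest 0.12).

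**Figure D2:**
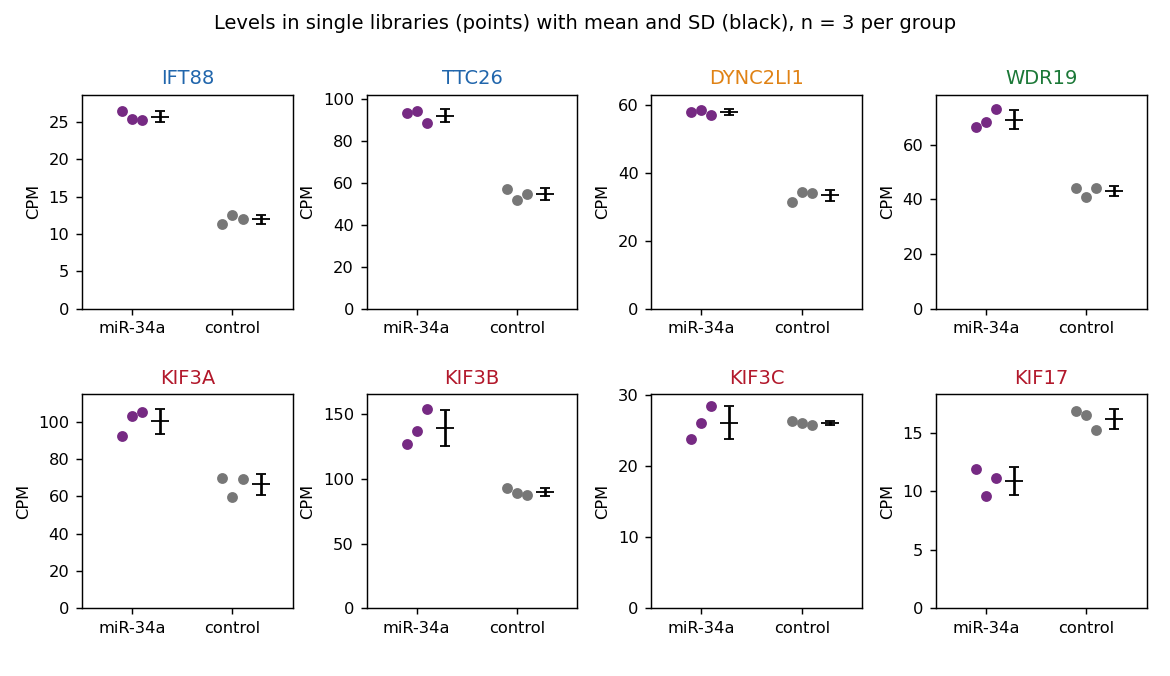
TMM-scaled CPM of 8 members in each library (points, miR-34a left of control) with the mean and SD in black, n = 3 per group; each vertical axis starts at 0. The groups are apart in IFT88, TTC26, DYNC2LI1, WDR19, KIF3A and KIF3B, overlap in KIF3C, and lie in the other order in KIF17.

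The kinesin-2 family split by subunit: 3 genes were higher, 1 was lower and 1 was not called, with a median log2 fold change of 0.31. The 3 that were higher form the heterotrimer that moves IFT trains to the tip. KIF3A, a motor subunit, had 92.5, 103 and 105 CPM in miR-34a libraries and 70.0, 59.9 and 69.3 CPM in control libraries (log2 fold change 0.60 ± 0.08 SE). KIF3B, its motor partner, had 127, 137 and 154 CPM with miR-34a and 93, 88.7 and 87.5 CPM in the control (0.64 ± 0.07). KIFAP3, the adaptor that joins them to cargo, averaged 65.7 ± 0.936 CPM with miR-34a and 52.9 ± 1.13 CPM in the control (SD, n = 3 each). KIF3C, an alternative partner of KIF3A, had 23.8, 26.0 and 28.4 CPM with miR-34a, against 26.3, 26.0 and 25.7 CPM in the control, and the groups overlapped (0.01 ± 0.09, edgeR adjusted p = 0.96).

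KIF17, a homodimeric kinesin-2 also known for dendritic transport in neurons, was the member that was lower. It had 11.9, 9.59 and 11.1 CPM in miR-34a libraries, against 16.8, 16.5 and 15.2 CPM in control libraries, a log2 fold change of -0.57 ± 0.11 (SE, edgeR adjusted p = 0.00051). Every miR-34a library was below every control library. It also held the most seed matches: its 3′ UTR of 568 nt, on chromosome 1 in the last of 15 exons, has the 3 sites printed above, which start 42, 440 and 491 nt after the stop codon. The promoter window printed for it holds an X-box match on both strands, 62 bases before the start.

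In dynein-2, the motor of the return trip, 3 of the 4 listed subunits were higher and 1 was not called, with a median log2 fold change of 0.56. DYNC2LI1, the light intermediate chain, had 58.0, 58.7 and 57.0 CPM in miR-34a libraries and 31.6, 34.5 and 34.2 CPM in control libraries, a 1.73-fold difference (log2 0.79 ± 0.07 SE, edgeR adjusted p = 2.8e-08). DYNC2I1 (WDR60), an intermediate chain, had 75, 80 and 84.2 CPM with miR-34a and 51.8, 47.1 and 49.1 CPM in the control (0.69 ± 0.07). DYNC2H1, the heavy chain that holds the motor, had 184, 192 and 241 CPM with miR-34a and 170, 141 and 149 CPM in the control (0.42 ± 0.09). Its miR-34a replicate 3 was the highest of the 6 libraries, and without it the log2 fold change was 0.29. DYNC2I2 (WDR34), the other intermediate chain, averaged 127 ± 6.32 CPM with miR-34a and 125 ± 18.8 CPM in the control (SD, n = 3 each), so the intermediate chains that pair in the motor had different folds; the difference between them was not tested.

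Medians by complex, taken in each library as log2 CPM minus the control mean, were 0.27, 0.36 and 0.43 in miR-34a replicates 1, 2 and 3 for IFT-A, 0.42, 0.58 and 0.49 for IFT-B, 0.33, 0.31 and 0.29 for kinesin-2 and 0.44, 0.51 and 0.71 for dynein-2. The same medians in the control libraries lay between -0.06 and 0.05 for the 4 complexes. The median of each complex was above its control values in all 3 miR-34a libraries. Differences between the complexes were not tested. For the counts called by complex, the shares over all genes tested were 5.38% higher and 6.7% lower.

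**Figure D3:**
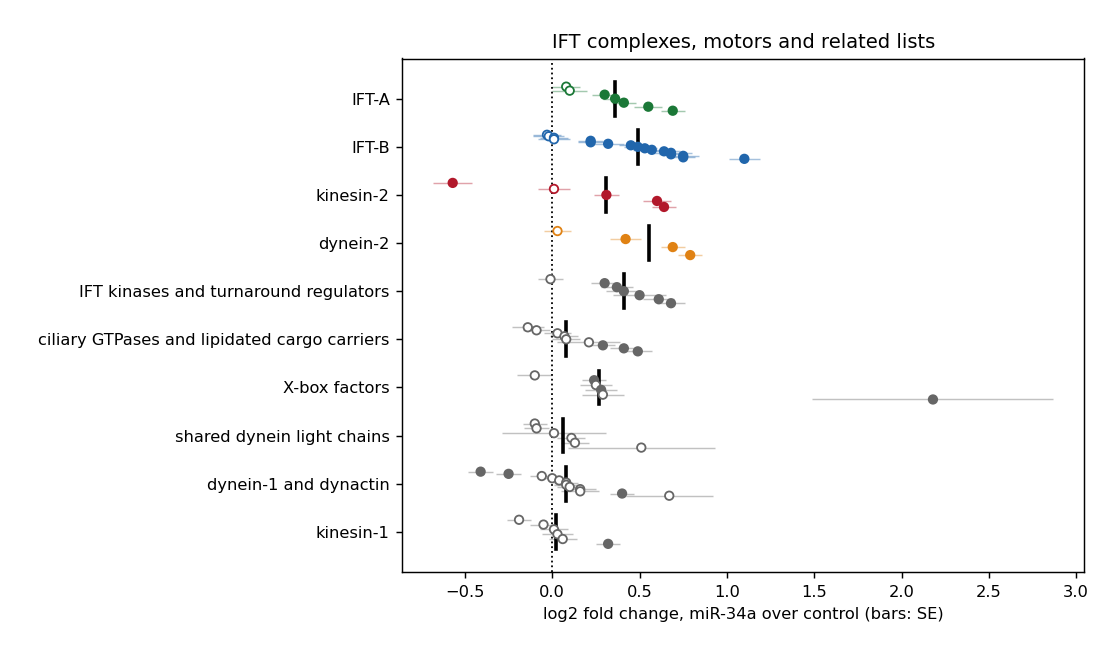
Log2 fold change of each tested gene (points, with SE bars) in the IFT complexes, the motors and 6 related lists; filled points passed the test, black bars are list medians and the dotted line is the median of all genes tested. Most filled points of IFT-A, IFT-B, dynein-2 and the IFT kinases lie between 0.22 and 0.79, and KIF17 is the filled point of kinesin-2 on the left.

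Levels per exonic length differed more between members than between the groups. By exon union, in IFT-A they ran from TULP3, at 14.7 CPM per kb of exon in miR-34a libraries and 12 in control libraries, to IFT43, lowest with miR-34a at 4.84, and IFT122, lowest in the control at 3.4. In IFT-B, IFT57 was highest, at 29 ± 1.86 CPM per kb with miR-34a and 24.9 ± 0.806 in the control (SD, n = 3 each), and TTC30A lowest, at 2.71 ± 0.0552 and 1.82 ± 0.209 CPM per kb. IFT88 stood among the lowest of IFT-B in both groups, at 4.20 ± 0.119 and 1.95 ± 0.0974 CPM per kb; in the control its interval of 1 SD overlapped those of TTC30A and TTC30B. KIF3B led kinesin-2, at 22.9 and 14.7 CPM per kb with miR-34a and in the control, and KIF17 was lowest, at 2.43 and 3.61. DYNC2I2, the subunit of dynein-2 that was not called, was the most abundant of all members per length, at 48.9 ± 2.43 and 47.9 ± 7.22 CPM per kb, while DYNC2I1 stood at 12 and 7.40. Rare exons lengthen the exon union used here; with the length of 1 transcript per gene the control medians were 9.39 for IFT-A, 15.4 for IFT-B, 14.7 for kinesin-2 and 19 for dynein-2, against 4.85, 7.49, 9.68 and 8.81 with the exon union, so the order of the complexes depends on the length used. The order of members does too. In the control libraries by transcript length, IFT43 (23 CPM per kb) was above TULP3 (19.6), and HSPB11 (45.3) and IFT27 (38.3) were above IFT57 (29.3). KIF3A (30.4) and KIFAP3 (17.9) were above KIF3B (14.7). The KIF3A transcript used has 2181 nt, all of it coding, against 6860 nt for its exon union, so its 30.4 rests on that shorter length. By transcript length TTC30A (1.82), KIF17 (4.07) and DYNC2I2 (71.1) kept their places at the low and high ends of their complexes.

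**Figure D4:**
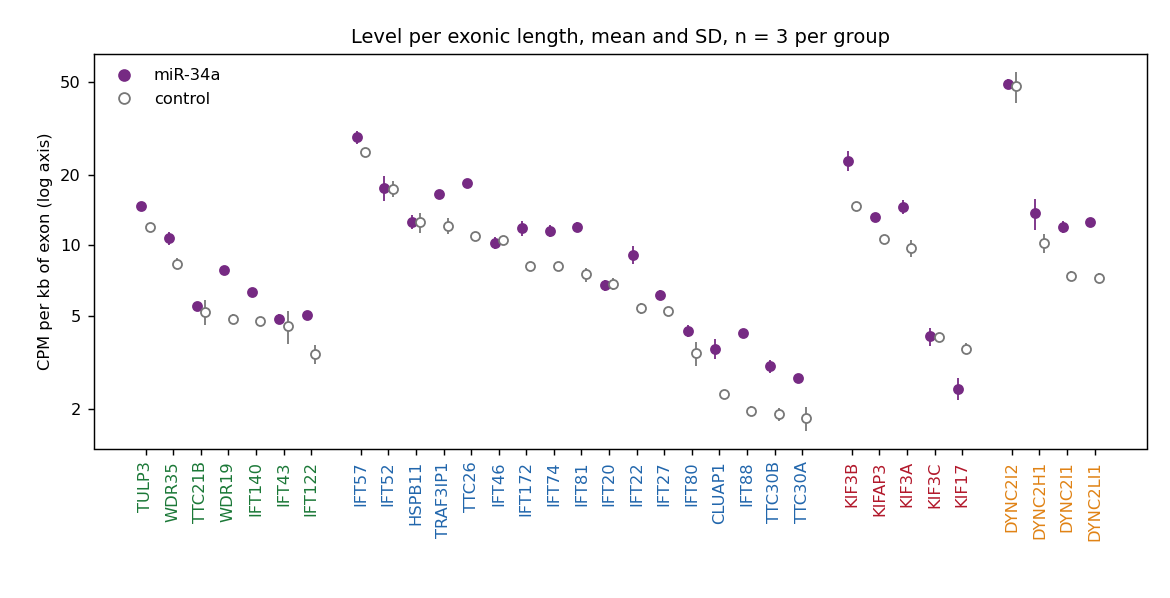
Level of each member per exonic length (vertical log axis, CPM per kb of exon), mean and SD, n = 3 per group, with filled miR-34a points left of open control points, ordered by control level within each complex. DYNC2I2 is highest and its groups coincide; IFT88 and KIF17 show the groups apart in opposite directions.

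Among the 32 members whose 3′ UTR could be classed, 3 (9.38%) had a 7mer or 8mer match to the miR-34a seed: KIF17, TULP3 and IFT22. Among all 12912 tested genes so classed the share was 20.9%. WDR35 and IFT57 had a 6mer, and KIF3A was not classed because the transcript used has no 3′ UTR. When any protein-coding transcript was searched, IFT88 gained a 7mer-A1 and CLUAP1 a 7mer-m8. Of the 3 members with a match, KIF17 was lower and the other 2 were higher. Sites were searched as the letters CACTGCC with an A after it (8mer), CACTGCC (7mer-m8), ACTGCCA (7mer-A1) and ACTGCC (6mer), each site counted once under its longest form.

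X-box matches were common in the promoters of the members. RefSeq windows of 250 bases before and 50 after the start were matched for 31 of 33 members; WDR35 and IFT22 were the others. The X-box consensus, searched on both strands with 0 to 3 bases between its arms, was in the windows of 21 of the 31 (67.7%) and of 44.5% of 11768 tested genes with a window. It matched the same bases on both strands, a form chosen after seeing the data, in 11 members (35.5%) and in 11.4% of those genes: WDR19, IFT122, IFT43, TTC26, TTC30A, TTC30B, IFT172, IFT80, IFT57, DYNC2H1 and KIF17. The motif GTTGCCA or GTTACCA, which can overlap the consensus, was in 11 members (35.5%) and in 7.14% of those genes; IFT88 has it 16 bases after the start with no full consensus match. Of the 21 members with a consensus match 17 were higher with miR-34a, and of the 10 without it 5 were higher. Over all tested genes with a window, 8.25% of those with the consensus were higher and 5.27% of those without it. KIF17, which was lower, and IFT43, which was not called, both hold the match on both strands. A match is a run of letters in the window, and binding was not measured.

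Other genes of the pathway were read from the same fit, in lists chosen for function and with earlier results of these data known. Over all 17427 genes tested, 5.38% were higher and 6.7% lower, with a median log2 fold change of 0.00. Of 7 tested genes listed as IFT kinases and turnaround regulators, 6 were higher and none lower, with a median log2 fold change of 0.41. The 6 include KIF24, which is neither an IFT kinase nor a turnaround regulator. The count was 4 without miR-34a replicate 2 or without control replicate 2. RABL2B, a GTPase that acts with IFT-B at the ciliary base, averaged 38.2 ± 3.09 CPM in miR-34a libraries and 23.9 ± 0.482 CPM in control libraries (SD, n = 3 each), but it has a near-identical paralogue, RABL2A, so its value is uncertain. KIF24, a kinesin that acts at the centriole cap, averaged 35.4 ± 3.03 CPM with miR-34a and 23.3 ± 2.69 CPM in the control, and CDK20, a kinase that acts on CILK1, 23.1 ± 1.48 and 17.8 ± 0.458 CPM. Among the ciliary GTPases and lipidated cargo carriers, ARL6, a GTPase that recruits the BBSome coat, was higher with a log2 fold change of 0.41, and UNC119B, a carrier of myristoylated proteins, was higher with 0.29. In that list 6 genes were not called, none was lower, and the median log2 fold change was 0.08.

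Motors of the cytoplasm were read in the same way. Of 12 genes of dynein-1 and dynactin, 1 was higher and 2 were lower, with a median log2 fold change of 0.08: the dynein-1 light intermediate chain DYNC1LI2 had 0.40, and the dynactin subunits DCTN5 and ACTR1A fell by 0.41 and 0.25 on the log2 scale. ACTR1A lost its call without miR-34a replicate 2 or 3 or control replicate 3 (highest edgeR adjusted p over its alternatives 0.095). Of 6 kinesin-1 genes only KIF5B was higher (log2 fold change 0.32), with a list median of 0.02. Of 6 tested dynein light chains, most of them shared between dynein-2 and dynein-1, 0 were called by edgeR and 0 by DESeq2. By edgeR 0 had an unadjusted p under 0.05. DYNLT2B was among the 6 but is not shared with dynein-1. It averaged 1.19 CPM with miR-34a and 1.16 CPM in the control. The most abundant, DYNLL1, averaged 278 ± 20.8 CPM with miR-34a and 254 ± 22.2 CPM in the control, with overlap. In DYNLL2 and DYNLT1 all miR-34a libraries were below all control libraries, as in 14.2% of all genes. No light chain had them all above. Over all genes tested 12.1% were called in either direction.

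Among 6 tested genes for factors that bind or accompany the X-box, 3 were higher by edgeR, against 5.38% of all genes tested. They were RFX5 (log2 fold change 0.24), RFX7 (0.28) and FOXJ1, the regulator of motile cilia. FOXJ1 had only 11, 18 and 18 counts in miR-34a libraries and 0, 10 and 0 in control libraries. RFX7 overlapped between the groups. None of these 3 calls held without miR-34a replicate 2, miR-34a replicate 3 or control replicate 3, and only RFX5 was called by DESeq2, which gave FOXJ1 no adjusted p. RFX2 and RFX3, which are known regulators of ciliary genes, were not called, at -0.10 and 0.29, and neither was RFX1, at 0.25. All miR-34a libraries were above all control libraries for RFX1 and RFX3, as in 13.1% of all genes. They were all below for RFX2, as in 14.2% of all genes. The 7 multiciliated-cell markers summed to 8.94, 11.6 and 10.2 CPM in miR-34a libraries and to 9.36, 9.85 and 9.51 CPM in control libraries; 2 of them were called higher (FOXJ1 and DNAI1, both under 1 CPM in every library) and 1 lower (MCIDAS), and none of the 7 was at 0 in every library. The summed level, of which MCIDAS and TPPP3 made up the most, overlapped between the groups. But 6 of the 7 markers had a positive log2 fold change, and the list median was 0.53. In 4 (FOXJ1, DNAI1, DNAH5 and PIFO) all miR-34a libraries were above all control libraries, as in 13.1% of all genes. DNAH5 and PIFO were not called and were low, at 0.781 and 1.09 CPM with miR-34a and 0.436 and 0.792 CPM in the control. The count called higher was 0 without miR-34a replicate 2 or 3 or control replicate 1 or 3, DESeq2 gave FOXJ1 and DNAI1 no adjusted p, the filter at 1 CPM removed both, and MCIDAS lost its call without miR-34a replicate 1 or 2 or control replicate 1 or 3. The part of these markers in the results on the IFT genes was not tested.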

How the data were processed

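HEK293T libraries, 3 with miR-34a and 3 with the control, were grouped by their titles. The authors deposited whole-number counts by Ensembl ID without normalization. Builds and tools in the submitters' processing notes are GRCh38, edgeR 3.42.4, Subread 2.0.3 with featureCounts, and STAR 2.7.11a. For annotation release, strand setting and multi-mapping reads the choice is not given in the sources used. The library kit (TruSeq RNA v2) does not mark strand.

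Genes were filtered with filterByExpr of edgeR 4.0.16 (R 4.3.3; minimum count 10, minimum total 15), which kept 17427 of 63140. After TMM scaling (factors 0.981 to 1.016), a quasi-likelihood model with group as its only term was fitted, with Benjamini-Hochberg adjustment over all genes tested. Each p-value sets the difference between the groups against the spread between these libraries, estimated with information shared across genes. CPM per kb divides by the union of GENCODE 29 exons. Seed matches were searched in the 3′ UTR, of at least 50 nt, of the transcript with the longest coding sequence. Full values are given for the 20 called members with the lowest adjusted p, for uncalled members at the extremes of level, and for up to 3 called genes of each other list. An item of the list of ciliary GTPases and carriers is not reported here. The members and lists were chosen with earlier results of these data known.

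Same-numbered libraries did not deviate together (correlations of -0.21, -0.05 and -0.26), so numbers were not used as pairs. Positive correlations were seen under other numbers: 0.32 for miR-34a replicate 3 with control replicate 1, 0.25 for 2 with 3 and 0.18 for 1 with 2. The replicate block follows the numbers and does not cover these pairs, and the cause was not tested. Chi-square statistics per degree of freedom between libraries of a group were 8.39 to 16, so no library looked like a copy. Alternatives were other scalings and filters, DESeq2 1.42.0, a replicate block and leaving out each library.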

Additional observations from a re-analysis of the deposited data

How the results depend on the processing

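Of 396 refits of single members under 12 alternatives, 365 kept direction and side of the threshold, 18 lost a call and none gained one. The lost calls were those of IFT27, IFT57 and IFT80. The count of members called higher was 22 to 24 under other scalings, filters, DESeq2 and the replicate block, and 21 to 23 when single libraries were left out; KIF17 stayed lower in all 12. Without the 3 members that share at least 10% of their exonic length with another gene, an alternative chosen after seeing the data, 22 were higher. Of these 3, CLUAP1 and IFT80 were called higher and IFT20 was not, so that count follows from the main calls and is no separate check. The replicate block gave 22 members higher and 1 lower, with 807 genes higher and 1023 lower overall. Leaving out single libraries moved the count of all genes higher between 525 (without control replicate 2) and 1287 (without control replicate 1), with 604 without miR-34a replicate 2 and 606 without control replicate 3, and the count lower between 727 (without miR-34a replicate 2) and 1394; the cause was not tested. The median of the members ranged from 0.39 to 0.49 in those fits. Uncalled members changed sign without single libraries, with log2 fold changes of -0.01 to 0.21 for IFT43, -0.09 to 0.09 for IFT52, -0.07 to 0.02 for IFT46, -0.06 to 0.08 for HSPB11, -0.06 to 0.03 for IFT20, -0.06 to 0.07 for KIF3C and -0.07 to 0.14 for DYNC2I2. The number of members with a 7mer or 8mer match was 3, or 5 over any transcript. At 3 libraries a group, uncalled members are not shown to be unchanged.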

Other observations

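Across all tested genes with a promoter window, members included, calls were counted by X-box letters. Of 5236 genes with the consensus, 8.25% were higher with miR-34a and 7.51% lower; of the genes without it, 5.27% were higher and 7.88% lower, and the median log2 fold changes were 0.01 and -0.01. Of 1339 genes with the consensus on both strands, 13.7% were higher with miR-34a and 6.95% lower; of the genes without it, 5.68% were higher and 7.81% lower. With the motif GTTGCCA or GTTACCA (840 genes) 12.1% were higher and 5.95% lower, against 6.17% and 7.85% without it. The median log2 fold change was 0.05 with either of these last forms and -0.01 without. These are descriptions across genes, which are not independent replicates, and the both-strand form was chosen after seeing the data. For the miR-34a seed, of 2702 genes with a 7mer or 8mer match 19.4% were lower and 4.63% higher, against 5.53% and 7.3% without one.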
